A study of Mus musculus with 10 samples.

Results

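The genes described here are 36 genes of DNA replication and mitosis, the machinery that marks cycling cells in the early cortical wall. They were taken by name from a list (the D cyclins were not on it), and every array probe carrying only 1 of these gene symbols was used. The array held 36 such probes for 33 of the genes, out of 21766 probes in all, and Ccnb1, Cdc20 and Mcm7 had no probe under this rule. Of the 36 probes, 30 probes of 29 genes were measured often enough to be tested, among 11855 tested probes. The tissue was the rostral and the caudal end of mouse neocortex at E11.5, from untreated embryos of the inbred C57 strain (C57Bl\6) or the outbred MF1 stock. Each pool joined the tissue of 3 embryos from a single litter, and its rostral and caudal RNA were amplified and hybridised together on 2 arrays with the Cy3 and Cy5 dyes exchanged. There were 2 pools of C57 and 3 of MF1, on 10 arrays. A pool is therefore the replicate, its value is the mean of its 2 arrays, and every test here rests on how far pools differ from each other. Dissection of whole ends of the cortex leaves neurons, vessels and blood in the sample, and amplification before labelling stands between the RNA and the ratio.

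Before a cell can copy its DNA, the origin factors Cdc6 and Cdt1 load the ring-shaped Mcm helicase onto chromatin in G1, a step that geminin (Gmnn) blocks later in the cycle. Cyclin E and cyclin A with Cdk2 start S phase, Cdc45 joins the loaded helicase, and Pcna, ribonucleotide reductase and thymidylate synthase sustain the synthesis. Cyclin B with Cdk1, the Aurora and Polo kinases and the spindle checkpoint then carry the cell through mitosis. In the neuroepithelium nearly every progenitor is in cycle and divides at the ventricular surface, and a cell that becomes a neuron leaves the cycle. Neurogenesis in the neocortex starts in its rostral and lateral part and spreads towards the caudal and medial part.

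Replication genes are known targets of E2F factors, and mitosis genes of complexes that bind the cell cycle homology region (CHR) and of NF-Y, which binds CCAAT. The stretches printed next come from RefSeq promoters of GRCm38.p6 (250 bases before to 50 after the transcription start) and are shown because the licensing and mitosis genes carry different letters there. A promoter was listed for 31 of the 36 genes, 33 promoters in all; those of Aurkb, Ccna2, Ccne2, Gmnn and Mcm4 are not used here. Each line runs 5′ to 3′ on the strand of the gene, and capitals mark a match to a motif on either strand.
Mcm6, chr1:128359706-128359825, minus strand: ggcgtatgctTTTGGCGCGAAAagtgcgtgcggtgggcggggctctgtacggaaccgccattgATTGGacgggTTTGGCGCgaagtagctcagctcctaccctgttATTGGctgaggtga
Mcm5, chr8:75109346-75109501, plus strand: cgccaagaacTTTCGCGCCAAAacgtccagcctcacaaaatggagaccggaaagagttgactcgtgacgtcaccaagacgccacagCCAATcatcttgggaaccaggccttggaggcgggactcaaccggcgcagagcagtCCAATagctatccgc
Cdc6, chr11:98908003-98908030, plus strand: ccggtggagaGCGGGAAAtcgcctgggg
Ccnb2, chr9:70421561-70421731, minus strand: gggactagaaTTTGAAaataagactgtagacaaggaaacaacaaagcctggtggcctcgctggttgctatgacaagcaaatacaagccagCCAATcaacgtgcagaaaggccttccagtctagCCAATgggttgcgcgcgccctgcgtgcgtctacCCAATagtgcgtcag
Cdk1, chr10:69352913-69353130, minus strand: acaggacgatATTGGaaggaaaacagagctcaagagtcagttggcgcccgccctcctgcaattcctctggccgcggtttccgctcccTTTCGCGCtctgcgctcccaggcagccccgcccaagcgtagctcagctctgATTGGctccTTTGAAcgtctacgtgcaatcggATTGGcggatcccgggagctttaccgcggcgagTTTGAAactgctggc
Kif11, chr19:37376327-37376378, plus strand: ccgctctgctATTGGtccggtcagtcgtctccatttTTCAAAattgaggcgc
The motifs searched on both strands were TTTCCCGC, TTTCGCGC, TTTGCCGC and TTTGGCGC for E2F, TTTGAA and TTCGAA for the CHR, and CCAAT for NF-Y. Matches on opposite strands can overlap, as the first E2F matches of Mcm6 and of Mcm5 do. An E2F motif was found in 8 of the 33 member promoters, 24.2%, against 2.26% of all 32851 promoters. Licensing and helicase genes held it in 6 of 9 promoters, among them Mcm6, Mcm5 and Cdc6, and mitosis genes in 1 of 11, that of Cdk1. The DNA synthesis genes held it in 0 of 5 promoters, and the G1 and S kinases, cyclins and E2f1 in 1 of 5. The motif was therefore not shared by the replication genes as a class. The CHR motif was present in 9 of 11 mitosis promoters, 81.8%, and in 3 of 9 licensing promoters, against 19.2% of all promoters. CCAAT was present in 10 of 11 mitosis promoters, 7 of 9 licensing promoters and 23 of 33 member promoters, 69.7%, against 37.4% of all. These are matches of letters in a window and no binding was measured.

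**Figure D1:**
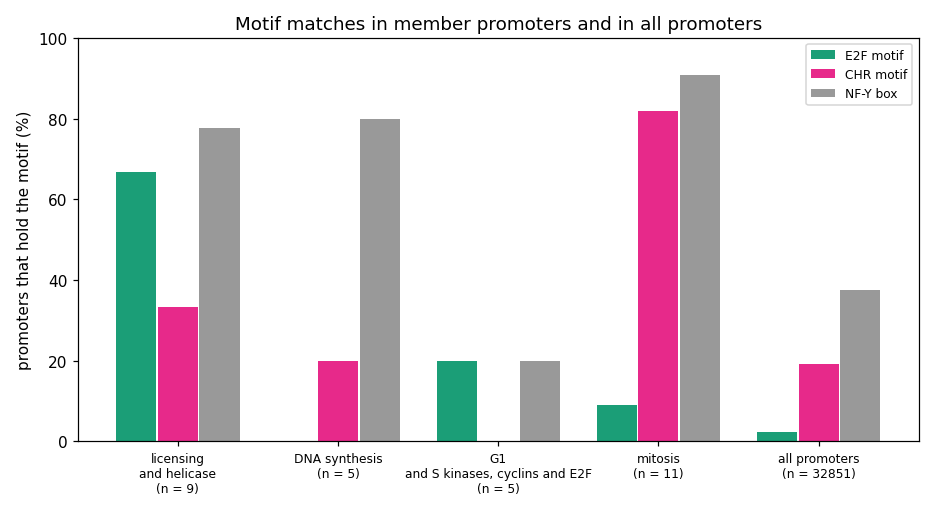
Share of promoters, in percent, that hold at least 1 match to the E2F, CHR or CCAAT (NF-Y) letters, for 4 roles of the replication and mitosis genes and for all promoters; n is the number of promoters. The E2F bar is highest for the licensing and helicase genes, at 66.7%, and the CHR bar for the mitosis genes, at 81.8%.

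All ratios are on the log2 scale and set caudal against rostral RNA, so that 1 is a 2-fold caudal excess, and each pool value is given relative to the median of all probes of that pool. The files do not say which dye is the numerator of the deposited ratio. It was read as Cy5 over Cy3, which makes the textbook caudal gene Nr2f1 higher caudally in 5 of 5 pools for 1 probe (1.79 ± 0.28, SE) and the rostral FGF response genes Spry1 (-1.35 ± 0.15) and Dusp6 (-1.14 ± 0.15) lower in 5 of 5. The other Nr2f1 probe was above 0 in 4 of 5 pools (0.50 ± 0.16). Emx2 and Pax6, also known for cortical gradients, did not bear on it, at 0.04 ± 0.14 for Emx2 and 0.06 ± 0.19 and -0.04 ± 0.14 for the Pax6 probes. This direction is likely. Under the opposite reading the sign of every ratio and strain difference printed here turns, while the correlations stay the same. The medians that were subtracted lay between -0.20 and 0.37. C57 arrays gave a ratio for 20191 to 20870 probes and MF1 arrays for 13723 to 18288. A ratio holds no expression level, so the label of the tissue could be checked only by which markers were measured: of 19 probes for neuroepithelial and radial progenitor markers such as Sox2, Nes and Pax6, 14 gave a ratio on all 10 arrays and none on fewer than 7. The replication and mitosis probes were measured widely as well, 29 of 36 of them (80.6%) on all 10 arrays against 41.0% of all probes.

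Reproducibility was low over the arrays as a whole and bears on every value below. Between the 2 arrays of a pool, the turned ratios of all tested probes correlated at -0.122 to 0.009 (Pearson's r across probes, which are not independent replicates). Arrays of different pools with the same dye order correlated at 0.021 to 0.438 before turning, a value that any dye effect of a probe adds to. Between pools, with both dye orders averaged, r across the 8924 probes measured in all of them ran from -0.231 (MF1 pools 1 and 3) to 0.242 (MF1 pools 2 and 3).

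No replication or mitosis gene was called different between the caudal and the rostral end when the strains were averaged. The median log2 ratio of the 30 tested probes was 0.04, against 0.03 for all 11855 tested probes, with 18 probes above 0 and 12 below. By limma, 0 of the 30 had an unadjusted p under 0.05, where 546 of all probes did (4.61%), and 0 passed after Benjamini-Hochberg adjustment, as did 0% of all probes. The smallest unadjusted p in the set was 0.128, for the first of the probes for Mcm5 (adjusted p = 0.988). The interquartile range of the 30 estimates was -0.04 to 0.10, and that of all probes -0.10 to 0.15. Of the 30 estimates, 27 lay within 0.25 of 0 (90.0%, against 75.0% of all probes) and 30 within 0.5 (against 92.5%). In a mixed tissue, fewer cycling cells and less of these RNAs per cell cannot be told apart.

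The intervals say how large a difference could have been missed. The half-width of the 95% interval had a median of 0.36, from 0.28 for Bub1 to 0.72 for Ccne2. For 22 of the 30 probes the whole interval lay within 0.5 of 0, and for 28 within 1. The exceptions to the wider limit were Mcm5 probe 1, whose interval reached 1.12, and Ccne2, whose interval reached 1.17. Pool values of these probes had an SD with a median of 0.27, against 0.35 for all tested probes. Of the tested probes, Aurka alone lay on 1 side of 0 in all of its pools, 1 of 30 (3.33%) against 8.92% of all tested probes.

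**Figure D2:**
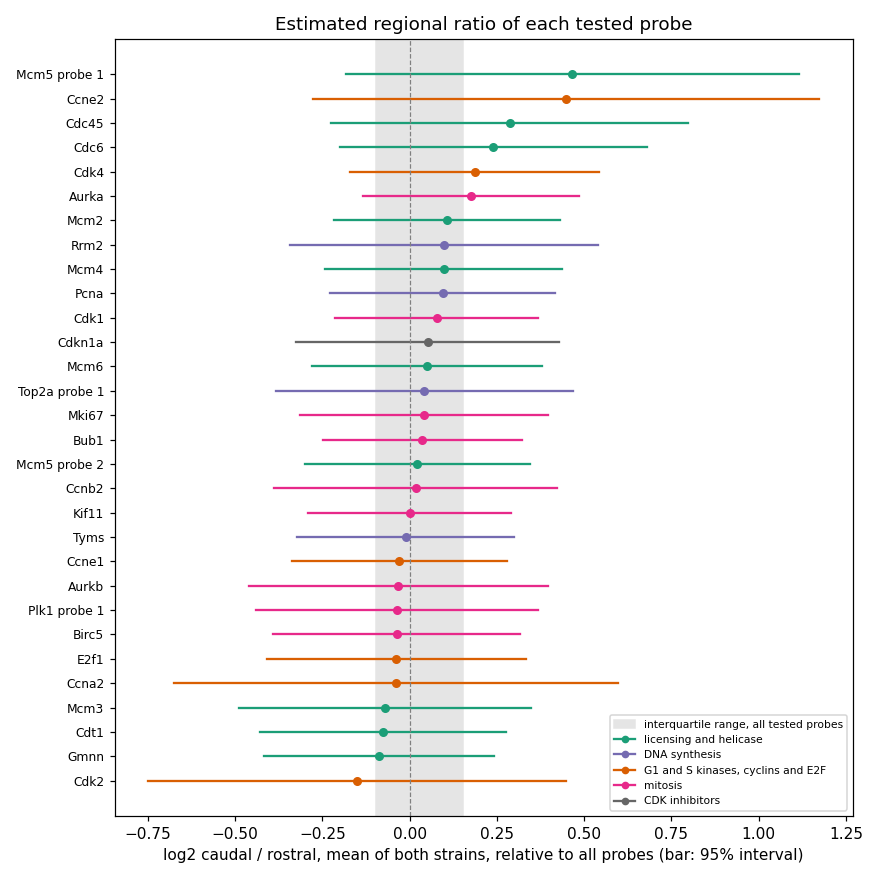
Estimated log2 ratio of caudal over rostral RNA, mean of both strains, for the 30 tested replication and mitosis probes; points are limma estimates relative to all probes of the pool, bars are 95% intervals, and colours give the role. All 30 bars cross 0, and the grey band is the interquartile range of all tested probes, -0.10 to 0.15.

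The helicase subunits had mean ratios near 0, apart from 1 of the probes for Mcm5. Mcm2 lay at 0.26 and -0.06 in the C57 pools 1 and 2 and at 0.33, 0.09 and -0.06 in the MF1 pools 1, 2 and 3. Mcm4 lay at 0.30 and -0.09 in C57 and at 0.31, 0.11 and -0.14 in MF1. The sign of Mcm4 followed the dye in every pool. Its arrays gave -0.370 to -0.055 where the caudal RNA carried Cy5 and 0.149 to 0.776 where it carried Cy3. Mcm6 lay at 0.29 and 0.05 in C57 and at 0.20, -0.27 and -0.15 in MF1. These subunits were above 0 in C57 pool 1 and MF1 pool 1 and close to or below 0 in most other pools, and the strains overlapped. Mcm3 lay at 0.18 and -0.10 in C57 and at 0.28, -0.20 and -0.62 in MF1, the lowest helicase value of any pool. The mean ratios were 0.11 ± 0.13 (SE) for Mcm2, -0.07 ± 0.17 for Mcm3, 0.10 ± 0.14 for Mcm4 and 0.05 ± 0.13 for Mcm6.

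The 2 probes for Mcm5, another subunit of the same ring, did not give the same picture. Mcm5 probe 1 lay at 0.20 and 0.00 in C57 and at 0.02, 1.73 and 0.75 in MF1, with a mean of 0.47 ± 0.26. Mcm5 probe 2 lay at 0.14 and -0.15 in C57 and at 0.28, -0.02 and -0.11 in MF1, with a mean of 0.02 ± 0.13. The second probe followed the other subunits: with it, the 5 subunits spanned 0.14 to 0.30 in C57 pool 1, -0.15 to 0.05 in C57 pool 2, 0.20 to 0.33 in MF1 pool 1, -0.27 to 0.11 in MF1 pool 2 and -0.62 to -0.06 in MF1 pool 3. The first probe stood above that span in MF1 pools 2 and 3. Averaged into a single value, the 2 probes gave a mean ratio of 0.24.

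Cdc6, which loads the helicase, and Cdc45, which activates it, had the next largest caudal values of this role. Cdc6 lay at 0.10 and -0.06 in C57 and at -0.09, 0.89 and 0.57 in MF1 (mean 0.24 ± 0.18). Cdc45 lay at 0.04 and -0.08 in C57 and at -0.02, 1.25 and 0.55 in MF1 (mean 0.29 ± 0.21). Both were high in MF1 pools 2 and 3 and near 0 in the other 3 pools, so that MF1 pool 1 overlapped the C57 pools. Cdt1, the other loading factor, lay at -0.11 and 0.37 in C57 and at -0.03, -0.44 and -0.37 in MF1 (mean -0.08 ± 0.14), low in the pools where Cdc6 was high. Its inhibitor Gmnn lay at 0.14 and -0.30 in C57 and at 0.08, -0.14 and -0.22 in MF1 (mean -0.09 ± 0.13). Over the 10 licensing and helicase probes the median ratio was 0.07, with 7 above 0 and 3 below.

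**Figure D3:**
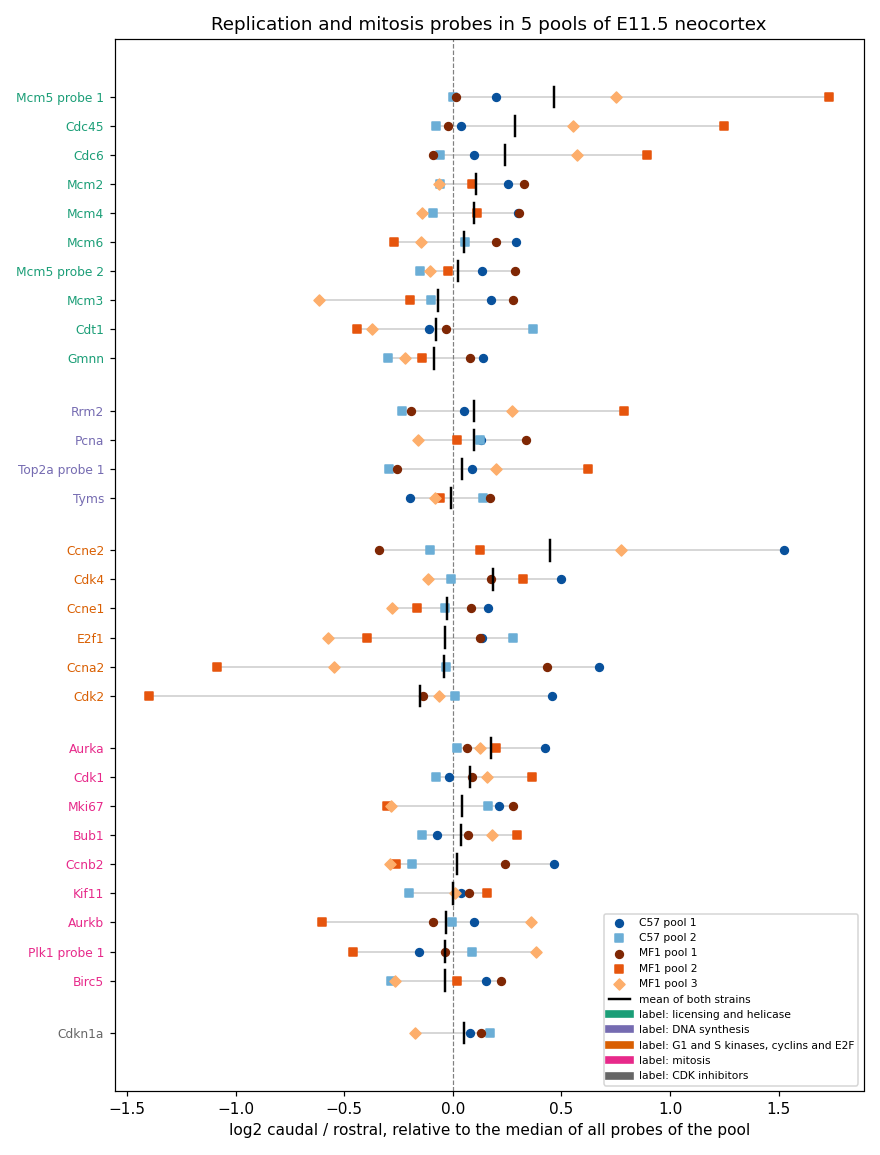
Log2 ratio of caudal over rostral RNA in each of the 5 pools for the 30 tested replication and mitosis probes, relative to the median of all probes of the pool; symbols are pools, black ticks the mean of both strains, and label colours the roles. The ticks lie between -0.15 (Cdk2) and 0.47 (Mcm5 probe 1), while single pools reach 1.73 and -1.40.

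The genes of DNA synthesis centred near 0 too, with a median of 0.07 over 4 tested probes. Pcna, the sliding clamp of the polymerases, lay at 0.13 and 0.12 in C57 and at 0.34, 0.02 and -0.16 in MF1 (mean 0.10 ± 0.13). Rrm2, the regulated subunit of ribonucleotide reductase, lay at 0.05 and -0.23 in C57 and at -0.20, 0.79 and 0.27 in MF1 (mean 0.10 ± 0.18). Top2a probe 1, for the topoisomerase that untangles copied strands, lay at 0.09 and -0.29 in C57 and at -0.26, 0.62 and 0.20 in MF1 (mean 0.04 ± 0.17). Rrm2 and Top2a thus had their highest values in MF1 pools 2 and 3, like Cdc6 and Cdc45, whereas Pcna had its highest in MF1 pool 1. Tyms, thymidylate synthase, lay at -0.20 and 0.14 in C57 and at 0.17, -0.06 and -0.08 in MF1 (mean -0.01 ± 0.12). Its value in C57 pool 1 averaged arrays at -1.29 and 0.92, which differed by more than any 2 of its pools. Of the untested probes, Rrm1 was measured in 4 pools, from -0.31 to 0.02. Top2a probe 2 lay at 0.12 and 0.36 in the C57 pools and at -0.53 and -1.57 on the 1 array each that gave a ratio in MF1 pools 1 and 3.

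Among the kinases, cyclins and E2f1 that drive entry into S phase, the tested probes had a median of -0.03, with 2 above 0 and 4 below. Ccne2, an E-type cyclin, lay at 1.52 and -0.11 in C57 and at -0.34, 0.12 and 0.78 in MF1 (mean 0.45 ± 0.29). Its SD over pools was the largest of the tested probes. The high value in C57 pool 1 came from 1 of its 2 arrays, with 2.94 where the caudal RNA carried Cy5 and 0.14 where it carried Cy3. Without C57 pool 2 the mean ratio of Ccne2 was 0.86, and without C57 pool 1 it was 0.04. Ccne1, the other E-type cyclin, lay at 0.16 and -0.04 in C57 and at 0.08, -0.16 and -0.28 in MF1 (mean -0.03 ± 0.12). Its partner Cdk2 lay at 0.46 and 0.01 in C57 and at -0.14, -1.40 and -0.06 in MF1 (mean -0.15 ± 0.24). The low value in MF1 pool 2 again came from 1 array, with -2.78 where the caudal RNA carried Cy3 and 0.02 where it carried Cy5. For both genes, a single array set the extreme value.

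Ccna2, the cyclin of S and G2 phase, differed between C57 pool 1 and MF1 pool 2 on both of their arrays. It lay at 0.67 and -0.03 in C57 and at 0.44, -1.08 and -0.55 in MF1 (mean -0.04 ± 0.26). The arrays gave 0.80 and 0.57 in C57 pool 1 and -0.67 and -1.46 in MF1 pool 2. In other pools the dye orders lay further apart, with -0.435 and 0.379 in C57 pool 2 and -0.905 and -0.131 in MF1 pool 3. MF1 pool 1 gave 0.159 and 0.693. E2f1, a transcription factor of replication genes, lay at 0.13 and 0.28 in C57 and at 0.13, -0.39 and -0.58 in MF1 (mean -0.04 ± 0.15). Cyclin A2 and E2f1 were therefore low in MF1 pools 2 and 3, where Cdc6 and Cdc45 were high. Cdk4, the G1 partner of the D cyclins, lay at 0.50 and -0.01 in C57 and at 0.18, 0.32 and -0.12 in MF1 (mean 0.19 ± 0.14). Cdk6, the other such kinase, was too seldom measured to be tested, at 0.29 and 0.02 in C57, at 0.88 and 1.20 on 1 array each of MF1 pools 1 and 2, and at 2.72 in MF1 pool 3. That last value joined arrays at 5.68 and -0.17, which do not give a common ratio.

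The mitosis genes had a median of 0.02 over 9 tested probes, 5 above 0 and 4 below. Ccnb2, a B-type cyclin, lay at 0.46 and -0.19 in C57 and at 0.24, -0.26 and -0.29 in MF1 (mean 0.02 ± 0.16). Its kinase Cdk1 lay at -0.02 and -0.08 in C57 and at 0.09, 0.36 and 0.16 in MF1 (mean 0.08 ± 0.12). Cdk1 was thus above 0 in every MF1 pool and below 0 in both C57 pools, which was not so for the cyclin. In MF1 pool 1 its arrays gave -0.07 with the caudal RNA in Cy5 and 0.23 with it in Cy3. Bub1, a spindle checkpoint kinase, had the same arrangement, at -0.07 and -0.14 in C57 and at 0.07, 0.30 and 0.18 in MF1 (mean 0.04 ± 0.11). Its MF1 values rested on 1 dye order, with -0.42, 0.06 and -0.20 where the caudal RNA carried Cy5 and 0.53, 0.57 and 0.62 where it carried Cy3. Its relative Bub1b, untested, was measured in 4 pools from -0.30 to 0.29.

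Aurka, the Aurora kinase of the spindle poles, lay at 0.42 and 0.02 in C57 and at 0.07, 0.20 and 0.12 in MF1 (mean 0.18 ± 0.12). Aurkb, the Aurora kinase of the centromere, lay at 0.10 and -0.01 in C57 and at -0.09, -0.60 and 0.36 in MF1 (mean -0.03 ± 0.17). Aurka was caudal by a small margin in every pool and its interval of -0.13 to 0.49 includes 0, whereas Aurkb lay on both sides. Birc5 (survivin), which works in a complex with Aurkb, lay at 0.15 and -0.28 in C57 and at 0.22, 0.02 and -0.27 in MF1 (mean -0.04 ± 0.14). Plk1 probe 1, for the Polo kinase, lay at -0.16 and 0.09 in C57 and at -0.04, -0.46 and 0.38 in MF1 (mean -0.04 ± 0.16). Plk1 probe 2, untested, lay at -0.16 and -0.12 in C57, and in MF1 pool 2 its arrays gave 0.87 and -1.41. On the 1 array each of MF1 pools 1 and 3 it gave 0.73 and 0.03, so the probe had no common side. Kif11, the motor that separates the spindle poles, had the smallest spread of the tested probes, at 0.04 and -0.20 in C57 and 0.08, 0.16 and 0.01 in MF1 (SD 0.13). Mki67, the general marker of cycling cells, lay at 0.21 and 0.16 in C57 and at 0.28, -0.30 and -0.29 in MF1 (mean 0.04 ± 0.14).

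The Cdk inhibitors act in the opposite sense and hold cells in G1. Cdkn1a (p21) lay at 0.08 and 0.17 in C57 and at 0.13 and -0.17 in MF1 pools 1 and 3 (mean 0.05 ± 0.14 over 4 pools). Cdkn1b (p27) was measured on 6 arrays and not tested. It lay at -1.40 and 0.97 in the C57 pools, which are of opposite sign, and at -4.02 and -1.08 on 1 array each of MF1 pools 2 and 3.

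Of the comparisons made, MF1 by itself held the only call. In MF1, 1 of the 30 probes had an unadjusted limma p under 0.05 against 789 of all probes (6.66%). This was Mcm5 probe 1, at 0.83 ± 0.33 (1.78-fold higher caudally, adjusted p = 0.746 by limma). With each pool of any strain left out in turn, that count ran from 0 to 5. It was 0 without C57 pool 1, C57 pool 2, MF1 pool 2 or MF1 pool 3, and 5 without MF1 pool 1, when Cdc45, Cdc6, Ccna2 and E2f1 were called as well, the last pair as lower caudally. The fit without MF1 pool 1 called 5 of 29 set probes in MF1, where 1614 of 9408 probes were called in all. In C57, 0 of the 30 were called against 225 of all probes (1.9%), and the smallest unadjusted p by limma was 0.171, for Ccne2. Without C57 pool 2, Ccne2 lay at 1.52 in C57 and at 0.86 for the mean of both strains. C57 is then 1 pool, which the fit assumes to vary as the MF1 pools do, so no call is drawn from it. For the mean of both strains, leaving out MF1 pool 1 gave 3 calls at an unadjusted limma p under 0.05. These were Mcm5 probe 1 at 0.67, Cdc45 at 0.44 and Cdc6 at 0.38, where 978 of 9408 probes were called in all. No replication or mitosis probe passed an adjusted p of 0.05 in any of these fits by limma.

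That pool dependence is seen in the arrays themselves. The 5 probes described here, Mcm5 probe 1, Cdc45, Cdc6, Rrm2 and Top2a probe 1, were picked after their values were seen, so no test is attached to them. In MF1 pool 2, with the caudal RNA in Cy5 and then in Cy3, Mcm5 probe 1 gave 1.46 and 2.04, Cdc45 gave 1.23 and 1.30, and Rrm2 gave 0.88 and 0.74. In MF1 pool 3, Mcm5 probe 1 gave 0.35 and 1.21, Cdc45 gave 0.33 and 0.84, and Rrm2 gave 0.31 and 0.29. Both dye orders therefore put Mcm5 probe 1, Cdc45 and Rrm2 on the caudal side in both pools. Mcm5 probe 2 did not follow, with 0.10 and -0.10 in MF1 pool 2 and -0.12 and -0.03 in MF1 pool 3. Cdc6 gave 1.68 and 0.15 in MF1 pool 2 and 0.68 and 0.52 in MF1 pool 3, and Top2a probe 1 gave 0.64 and 0.64, then -0.02 and 0.47. In MF1 pool 1 the same 5 probes lay between -0.63 and 0.42 on the 2 arrays, with -0.41 and 0.42 for Mcm5 probe 1.

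**Figure D4:**
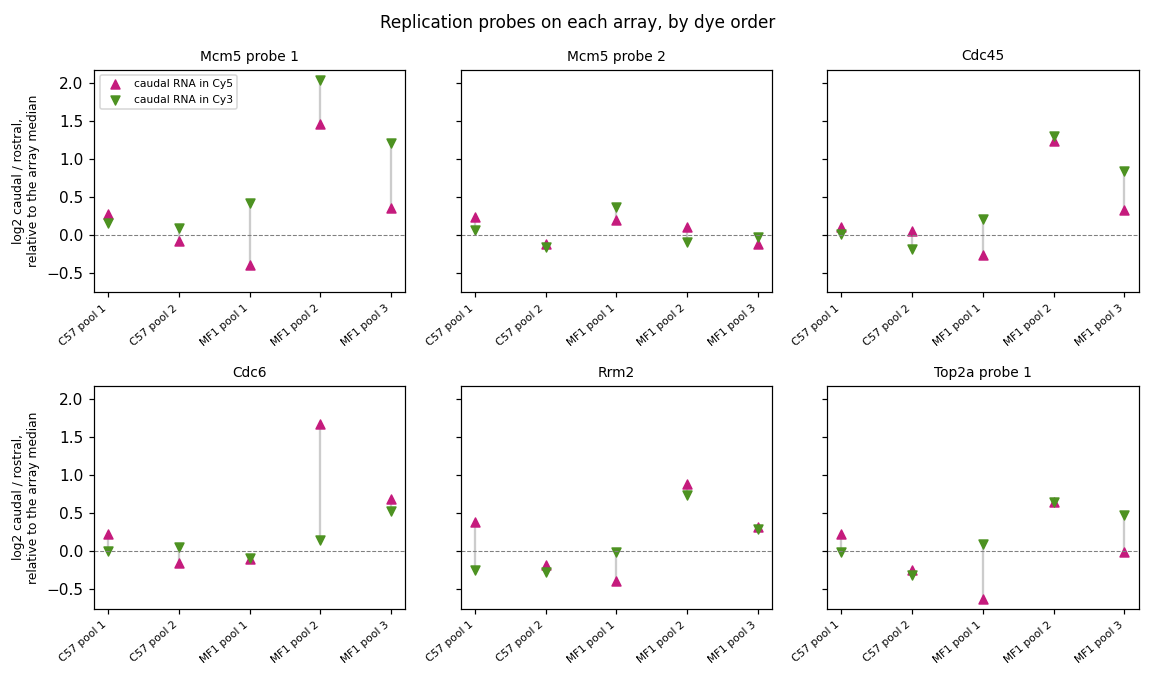
Log2 ratio of caudal over rostral RNA on each of the 10 arrays, relative to the array median, for 6 replication probes; triangles up are arrays with the caudal RNA in Cy5 and triangles down those with it in Cy3, joined within a pool. Mcm5 probe 1 and Cdc45 lie above 0 with both dye orders in MF1 pools 2 and 3, and Mcm5 probe 2 stays between -0.17 and 0.36 on all arrays.

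MF1 pools 2 and 3 also resembled each other over the whole set. Across the 29 probes measured in both, their values correlated with r = 0.623 (Spearman's rho = 0.595), and 22 of the 29 (75.9%) had the same sign. Over the 8924 probes measured in all pools, r was 0.242 and 63.3% had the same sign. Within these pools the 2 dye orders correlated at r = 0.489 and 0.457 across the replication and mitosis probes, against -0.034 and -0.056 across all probes. Spearman's rho was 0.452 and 0.482 across the set, against 0.095 and 0.166 across all probes. In C57 pools 1 and 2 and MF1 pool 1, r between the dye orders across the set was -0.186, 0.184 and -0.057. MF1 pool 1 ran the other way from MF1 pool 3 (r = -0.684 across the set and -0.231 across all probes). The C57 pools had r = -0.153 across the set. Probes of a pool share its RNA and arrays, so these correlations are a description.

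**Figure D5:**
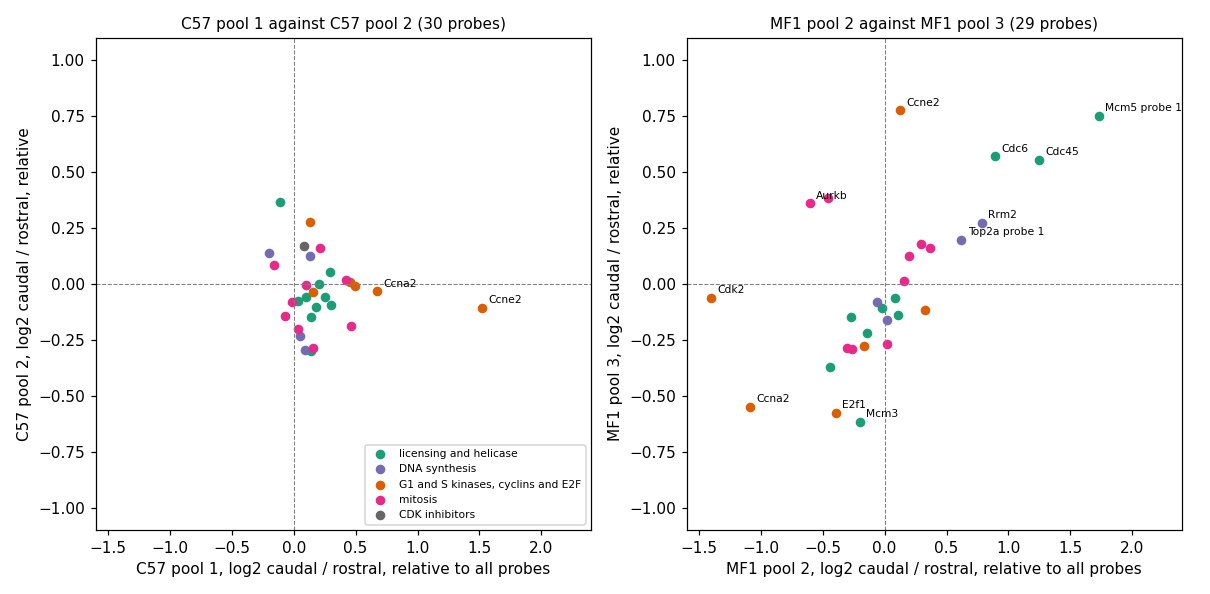
Log2 ratio of caudal over rostral RNA of the tested replication and mitosis probes in C57 pool 2 against C57 pool 1 (left, 30 probes, r = -0.153) and in MF1 pool 3 against MF1 pool 2 (right, 29 probes, r = 0.623), relative to all probes of the pool and coloured by role. In the MF1 panel Mcm5 probe 1, Cdc45 and Cdc6 lie at the upper right and Ccna2 at the lower left.

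Single markers of other cell types also had large values in the same MF1 pools. The surface ectoderm keratin Krt18 lay at -2.52 and -2.95 in MF1 pools 2 and 3 and at -0.39 and -0.38 in the C57 pools, and was not measured in MF1 pool 1. Sox18, an endothelial factor, lay at 2.23 and 2.10 in those MF1 pools and at -0.44 and 0.02 in C57. As whole lists these did not shift alike: the median of the surface ectoderm markers was -0.23 in MF1 pool 2 and -1.63 in MF1 pool 3 (6 and 7 probes), and that of the endothelial markers 0.07 and -0.15 (6 and 8 probes). For neuronal markers the medians were -0.13 and 0.11 in the same pools (17 and 23 probes), and for progenitor markers -0.24 and -0.10 (14 and 16 probes). Summed levels cannot be given from ratios, and the part of these cells in the replication values was not tested.

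The test of the difference between the strains called no replication or mitosis gene. For MF1 minus C57, 0 of the 30 probes had an unadjusted limma p under 0.05, against 285 of all probes (2.4%), and 0 passed the adjustment. The smallest unadjusted p was 0.158, for E2f1, at -0.49. The 6 kinase, cyclin and E2f1 probes lay below 0 in this comparison, with a median of -0.50 and a range of -0.77 to -0.12. In C57 their median was 0.48 in pool 1 and -0.02 in pool 2, so the C57 side of that difference lay in 1 pool. Cdk2 was above 0 in both C57 pools and below 0 in all MF1 pools (-0.77, 95% interval -1.96 to 0.43). Cdk1 (0.25, 95% interval -0.33 to 0.83) and Bub1 (0.29, 95% interval -0.28 to 0.86) were arranged the other way, and all of these intervals include 0. The strains lay on opposite sides of 0 in this manner for 3 of the 30 probes (10.0%) and for 560 of all tested probes (4.72%). For Cdk2 the MF1 sign followed the dye, with 0.34, 0.02 and 0.22 where the caudal RNA carried Cy5 and -0.64, -2.78 and -0.29 where it carried Cy3. Without MF1 pool 1 the strain comparison called 5 probes, Mcm5 probe 1, Cdc45 and Cdc6 as higher in MF1 and Ccna2 and E2f1 as lower, of 770 calls among 9408 probes, with a smallest adjusted p of 0.602 in the set.

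The centre and the width of the set in each pool were as follows. The median of the tested probes was 0.14 in C57 pool 1, -0.05 in C57 pool 2 and 0.09, 0.02 and -0.09 in the MF1 pools, an SD of 0.09 over the 5 pools. On single arrays, relative to the array median, it depended on the dye order. With the caudal RNA in Cy5 and then in Cy3 it was 0.277 and 0.041 in C57 pool 1 and -0.072 and -0.025 in C57 pool 2. In the MF1 pools 1, 2 and 3 it was -0.043 and 0.267, 0.064 and 0.028, and -0.143 and 0.104. The dye orders thus gave opposite signs in MF1 pools 1 and 3. Within a pool, the SD across the set was 0.32 and 0.16 in C57 and 0.19, 0.63 and 0.37 in MF1, and across all tested probes 0.45 and 0.30 in C57 and 0.55, 0.77 and 0.67 in MF1. The pool with the widest values in the set, MF1 pool 2, was thus also the widest over the array.

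Further genes of the same processes gave a like picture. Of 120 other replication, mitosis and G1 or S regulator genes, 90 were tested with 95 probes, and the median ratio of these was 0.03, with 59 above 0 and 36 below. By limma, 4 of the 95 had an unadjusted p under 0.05 for the mean of both strains, 2 higher and 2 lower caudally, against 4.61% of all probes, and none passed the adjustment. Among the other replication genes, Timeless, a fork protection factor, was the 1 probe of 34 below that p. It lay at 0.00 and 0.18 in C57 and at 1.48 and 0.73 in MF1 pools 2 and 3 (mean 0.60 ± 0.18, adjusted p = 0.988 by limma), and was not measured in MF1 pool 1. Its values in MF1 pools 2 and 3 were thus as high as those of Cdc45.

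Of 42 probes for other mitosis genes, Ncapd2, a condensin subunit, and Kif20b, a kinesin of cytokinesis, were below that p. Ncapd2 lay at 0.76 and 0.45 in C57 and at 0.24, 0.54 and -0.20 in MF1 (mean 0.40 ± 0.16, adjusted p = 0.988 by limma). Kif20b lay at -1.23 and -0.94 in C57 and at 0.07, 0.29 and -0.04 in MF1 (mean -0.49 ± 0.13, adjusted p = 0.786 by limma). The strains did not overlap for Kif20b, and MF1 minus C57 was 1.19 with an unadjusted limma p of 0.0039, which did not pass the adjustment. Among 20 probes for other G1 and S regulators, Cdkn1c (p57), a Cdk inhibitor, was below that p. It lay at -0.35 and -0.59 in C57 and at -0.31, -1.81 and -0.95 in MF1 (mean -0.75 ± 0.24, adjusted p = 0.988 by limma), on the rostral side in 5 of 5 pools. Its relatives Cdkn1a and Cdkn1b, given earlier, did not lie on a common side.

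Markers of cells inside and outside the cycle framed these values. Neuronal markers had a median ratio of 0.17 over 24 probes, 17 above 0 and 7 below, and the neurogenic factor Neurod1 lay above 0 in 5 of 5 pools (0.68 ± 0.13, adjusted p = 0.658 by limma). Reln, a product of the earliest cortical neurons, lay below 0 in its 4 measured pools (-0.69 ± 0.16, adjusted p = 0.803 by limma). Progenitor markers had a median of -0.02 over 16 probes, 7 above 0 and 9 below. Of 3 probes for Slc1a3, a glutamate transporter of radial progenitors, 1 lay below 0 in 5 of 5 pools (-0.60 ± 0.15, adjusted p = 0.752 by limma). Another lay at -1.08 and -0.73 in C57, at -1.06 in MF1 pool 1 and above 0 in MF1 pools 2 and 3, and the last was measured only in the C57 pools, at -0.70 and -0.18. The globin Hbb-bh1 of primitive red cells lay above 0 in 5 of 5 pools (0.45 ± 0.12, adjusted p = 0.803 by limma), and all 7 blood probes were above 0, with a median of 0.29. Proneural and intermediate progenitor markers had a median of 0.19 over 8 probes and meningeal and mesenchymal markers one of -0.06 over 9. By pool, the proneural median was 0.31 and 0.13 in C57 and 0.27, -0.19 and -0.22 in MF1. The part of these cells in the values of the replication and mitosis genes was not tested.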

How the data were processed

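Trizol was used to extract the RNA, and amplified cDNA was labelled with Cy3 and Cy5, per the labels. What the authors deposited are log2 ratios of both dyes per probe, as the values show; how arrays were scanned, background-corrected or normalized is not given in sources used here. Of the values, 436 at a shared ceiling of 16.61 were treated as missing (none belonged to the genes described), and 232 Gapdh control spots were left out. Arrays were turned to caudal over rostral, the 2 arrays of a pool averaged where both gave a ratio, and the pool median over all probes subtracted. Probes with at least 2 pools of each strain entered lmFit and eBayes of limma 3.58.1 (R 4.3.3) with 1 coefficient per strain and 2.60 prior degrees of freedom; p-values are two-sided, Benjamini-Hochberg adjusted over 11855 probes.

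Probes were named by the platform annotation: 16632 had 1 symbol, 139 several and 4995 none, and 15952 symbols matched RefSeq genes by identifier. Data were simulated for the mean of both strains (11855 probes, 200 changed). At a log2 change of 0.5, 140 had an unadjusted limma p under 0.05 and none passed adjustment. At 1, 114 passed, and at 2, 191, with 11 and 18 unchanged probes called. Simulated noise was normal and independent and each change equal in every pool, so these counts need not hold for the measured pools. There, the Nr2f1 probe at 1.79 had an adjusted limma p of 0.619, Spry1 at -1.35 one of 0.298 and Dusp6 at -1.14 one of 0.325. The genes, lists, motifs and alternatives were chosen with earlier results of these data known. Named by rule were the listed genes, other cycle genes with an unadjusted p under 0.05, and up to 2 probes of smallest p per cell type list. Alternatives covered centring, scaling, filters, ceiling values, probe averaging, variance, dye handling, threshold and left-out pools; a set median without 2 probes was added after seeing the data.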

Additional observations from a re-analysis of the deposited data

How the results depend on the processing

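The median of the replication and mitosis probes, 0.04, lay between -0.02 (without MF1 pool 1) and 0.09 under the alternatives, within its SD of 0.09 over pools; without Mcm5 probe 1 and Ccne2, a choice made after seeing the data, it was 0.03. In no alternative did a probe of the set pass an adjusted p of 0.05 by limma; the smallest adjusted p was 0.206, in MF1 without MF1 pool 1. Counts below are of set probes with an unadjusted p under 0.05. For the mean of both strains the count was 0; it was 1 (Cdk6) when pools with 1 dye order were kept, and 0 to 3 with 1 pool left out. For MF1 minus C57 it was 0; it was 1 (Cdk6) with 1 dye order kept, and 0 to 5 with 1 pool left out. With the pool number as a replicate block that count was 1 (Cdk2, lower in MF1), and the count over all probes was 589 against 285. Pool numbers name different litters in the 2 strains, and deviations of same-numbered pools correlated at 0.149 and -0.022. Whether same-numbered pools shared a batch was not tested, and the main fit used no block. In C57 the count was 0, and it stayed 0 with any 1 MF1 pool left out. A C57 pool left alone was assumed to vary as the MF1 pools do, and Ccne2 lay at 1.52 in C57 without C57 pool 2. In MF1 the count of 1 became 0 without centring, with pools scaled to a common spread, with ceiling values kept, with probes of a gene averaged, with robust eBayes or at an unadjusted p under 0.01; it became 2 (Mcm5 probe 1 and Cdc45) when the 10 arrays were fitted with a dye term, and 0 to 5 with 1 pool left out. With 1 dye order kept it was 1 as well, but Cdk6 in place of Mcm5 probe 1. The cause of these moves was not tested.

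Over all probes, the 546 calls for the mean of both strains became 843 with 1 dye order kept, 357 among probes measured in all pools, 144 at an unadjusted p under 0.01, and 228 (without C57 pool 1) to 978 (without MF1 pool 1) with 1 pool left out. The 285 strain calls became 639, 141 and 69 in the first 3 of these, 162 with the arrays fitted singly and 138 to 770 with 1 pool left out. The 225 calls in C57 became 553 with scaling, 43 at the stricter p and 114 to 290 with 1 pool left out, and the 789 in MF1 became 469 without centring, 1472 with 1 dye order kept, 509 among probes measured in all pools, 200 at the stricter p and 429 to 1614 with 1 pool left out. These fits did not test the same number of probes, so their counts do not compare as shares. The main fit tested 11855 probes, that with 1 dye order kept 18840, and that of probes measured in all pools 8924. Leaving out MF1 pools 1, 2 or 3 left 9408, 10697 and 9598 probes. With 1 dye order kept the split of the calls was 289 higher and 554 lower for the mean of both strains, 108 and 142 in C57 and 546 and 926 in MF1. Without centring the split moved from 260 higher and 286 lower to 235 and 132 for the mean of both strains, from 133 and 152 to 65 and 158 for the strain difference, and from 129 and 96 to 171 and 43 in C57, and with the arrays fitted singly the splits became 318 and 171 for the mean of both strains, 151 and 63 in C57 and 482 and 268 in MF1, with 8 of all probes passing the adjustment (2 in C57). Of 417 values of single set probes under the alternatives, 415 moved by less than their SD over pools. Mcm5 probe 2 moved from 0.02 to 0.24 when averaged with probe 1, and Cdkn1a from 0.05 to -0.13 with 1 dye order kept. For left-out pools this measure cannot show a move, because dropping 1 pool always shifts the mean of both strains by less than that SD. Ccne2 went from 0.45 to 0.86 without C57 pool 2 and to 0.04 without C57 pool 1 and still counted as unmoved. Precision is limited by the number of pools and by the disagreement of their arrays.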
